A study of Mus musculus with 12 samples.

Results

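The genes described here encode the connective tissue of mouse pancreatic islets: collagens, basement membrane proteins, matrix proteoglycans and glycoproteins, enzymes and inhibitors of matrix remodelling, and markers of the fibroblasts, pericytes and smooth muscle cells that make and hold this matrix. They are 40 genes named for these roles, together with Dpep1, a membrane-bound dipeptidase counted among the 40, whose level was followed against that of the matrix genes. All 40 were matched by symbol among the 24078 entries of the deposited expression table, and all 40 passed the minimum of 0.1 RPKM (reads scaled by transcript length and by sequencing depth) on average that left 21701 entries for testing. The samples were islets of 12 male mice, 4 of each genotype, aged 5 to 6 months, all F2 hybrids of 129S6/SvEvTac and C57BL/6 from the Wfs1tm1Koks line. Wild-type (WT) controls carried no disrupted copy, Wfs1HZ mice carried 1 and Wfs1KO mice 2. In this allele most of exon 8 of Wfs1, which encodes the endoplasmic reticulum protein wolframin, is replaced by a LacZ cassette, and a truncated fusion of wolframin with LacZ is still expressed, which limits it as a complete loss of the gene. The islets were freed with collagenase, an enzyme that digests the very matrix proteins considered here, and picked by hand. The paper describes overnight culture ahead of its insulin secretion assay. It does not say whether the sequenced islets were cultured or had gone through that assay, and no treatment is listed for any group.

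Fibroblasts secrete fibrillar collagens together with the small proteoglycans that shape the fibrils, whereas the basement membrane around islet capillaries, made of type IV collagen, laminins and nidogen, comes from endothelial cells and pericytes. Islet beta cells make little matrix themselves. Pericytes contract and carry Rgs5, Cspg4 and Pdgfrb, while fibroblasts carry Pdgfra, Thy1, Dcn and Lum. In bulk RNA of this kind, fewer cells of a type and less RNA per cell cannot be told apart.

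Wfs1 itself checked the labels. In the 4 WT samples its level was 33.94, 27.37, 24.85 and 28.43 RPKM, in Wfs1HZ 15.03, 4.69, 16.43 and 8.16 RPKM, and in Wfs1KO 5.08, 6.61, 3.46 and 2.45 RPKM. Both mutant groups lay below every WT animal, and Wfs1HZ replicate 2 lay within the Wfs1KO range. The depth, estimated from the steps of short RNA genes, ran from 2109000 reads in Wfs1HZ replicate 2 to 9363000 in Wfs1KO replicate 1. It is the read total that the RPKM values imply, and lies well below the reads per sample that the paper reports. Hormone transcripts marked every library as islet tissue, with Ins2 at 6422.84 to 76686.68 RPKM, and exocrine RNA was present in all of them. The sum of 11 acinar (digestive enzyme) markers was lowest in Wfs1KO replicate 4 and Wfs1HZ replicate 2, at 8560 and 9100 RPKM, and highest in Wfs1HZ replicate 4, at 308000 RPKM. Median differences between genotypes are also given without single animals. The correlations with markers of other cells are also given without Wfs1HZ replicate 2 and Wfs1KO replicate 4, but not without Wfs1HZ replicate 4.

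The start regions of a few genes are shown for reference, because most members rose and fell together over the samples while Timp1 went the other way. RefSeq start regions were at hand for 27 of the 40 genes, and each sequence below is the 250 bases before the start on the GRCm38.p6 build, plus strand, 5′ to 3′, outside any annotated exon. Capitals mark matches, on either strand, to the TATA box (letters TATAAA), the CCAAT motif, the GC box core (letters GGGCGG), the AP-1 site (letters TGACTCA) or the CArG box, and overlapping GC box matches merge into 1 run. The stretches are Dpep1 at chr8:123185985-123186234, Bgn and Timp1 on chromosome X at chrX:73483351-73483600 and chrX:20869916-20870165, and Col3a1 at chr1:45311288-45311537.
Dpep1: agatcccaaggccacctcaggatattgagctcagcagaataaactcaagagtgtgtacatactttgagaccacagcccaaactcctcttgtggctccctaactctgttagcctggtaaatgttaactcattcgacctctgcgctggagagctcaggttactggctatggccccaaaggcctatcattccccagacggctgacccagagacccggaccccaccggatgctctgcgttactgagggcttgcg
Bgn: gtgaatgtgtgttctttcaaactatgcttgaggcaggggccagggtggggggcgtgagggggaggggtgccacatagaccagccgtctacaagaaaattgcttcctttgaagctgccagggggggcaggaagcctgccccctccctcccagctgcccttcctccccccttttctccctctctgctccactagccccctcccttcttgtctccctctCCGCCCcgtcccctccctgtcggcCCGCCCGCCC
Col3a1: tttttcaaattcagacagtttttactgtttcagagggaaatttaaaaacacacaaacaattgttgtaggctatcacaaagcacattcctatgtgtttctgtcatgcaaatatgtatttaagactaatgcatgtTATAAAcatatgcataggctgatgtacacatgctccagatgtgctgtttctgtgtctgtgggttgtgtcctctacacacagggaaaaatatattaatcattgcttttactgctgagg
Timp1: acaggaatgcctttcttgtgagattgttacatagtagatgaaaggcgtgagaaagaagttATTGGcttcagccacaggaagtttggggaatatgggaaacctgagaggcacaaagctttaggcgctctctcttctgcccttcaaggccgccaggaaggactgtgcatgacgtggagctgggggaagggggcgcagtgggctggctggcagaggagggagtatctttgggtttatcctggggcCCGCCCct
The GC box core was found in 13 of the 27 members with a window and in 32.7% of all 32851 windows, and the CCAAT motif in 9 of 27 against 33.8%. The TATA box was found in 3 of 27 against 12.4% of all windows, the AP-1 site in 1 (Col6a1) against 4.46%, and the CArG box, the site of serum response factor, in 1 (Lama2) against 1.47%. The Dpep1 window held none of these motifs, and the Bgn window held 3 copies of the GC box core beginning 34, 10 and 6 bases before the start. A member counts once if any of its windows held the motif, whereas the share over all windows is per window, so these are unlike measures. Matches are a description of these windows only.

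Secreted glycoproteins and proteoglycans were the most abundant of the 40. Sparc, a collagen-binding glycoprotein of remodelling tissue, averaged 76.6 RPKM over the 12 samples, biglycan (Bgn) 57.2 RPKM and decorin (Dcn) 48.3 RPKM, both small proteoglycans that bind collagen fibrils. The pericyte regulator Rgs5 averaged 41.0 RPKM, the metalloproteinase inhibitor Timp3 38.6 RPKM, the intermediate filament Vim 29.6 RPKM and the related inhibitor Timp1 23.9 RPKM. Averages of at least 10 RPKM were reached by 11 genes and of at least 1 RPKM by 36. The remaining 4, Col6a3, Col5a2, the crosslinking enzyme Loxl1 and the pericyte proteoglycan Cspg4, averaged 0.637, 0.589, 0.577 and 0.346 RPKM. Of 480 values, 1 was listed at 0, that of Dpep1 in Wfs1HZ replicate 4.

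Levels ran over a wide range between animals of the same genotype. The highest value of the 12 fell in Wfs1HZ replicate 2 for 31 of the 40 genes and in Wfs1KO replicate 4 for 5, and the lowest fell in Wfs1HZ replicate 4 for 26. WT replicates 1 and 4 were among the 3 lowest samples for 31 and 30 genes, and WT replicates 2 and 3 for 1 and 5. The same counts over all transcripts were not taken. The scaling factor of a library, its median ratio over 14753 transcripts, was also highest in Wfs1HZ replicate 2 (1.386) and lowest in Wfs1HZ replicate 4 (0.641). It was 1.082 and 0.884 in WT replicates 1 and 4, so transcripts at large share part of this order. The highest value was 159 times the lowest for the calcification inhibitor Mgp, 169 times for Col6a1, 112 times for Col1a2 and 109 times for the dermatopontin gene Dpt. The lowest values of Mgp and Col6a1 rested on about 0.986 and 0.993 estimated reads, so these ratios carry a large counting error. It was 2.87 times the lowest for Col4a1, 3.92 times for Lamc1 and 3.98 times for Col4a2, all of the basement membrane.

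**Figure D1:**
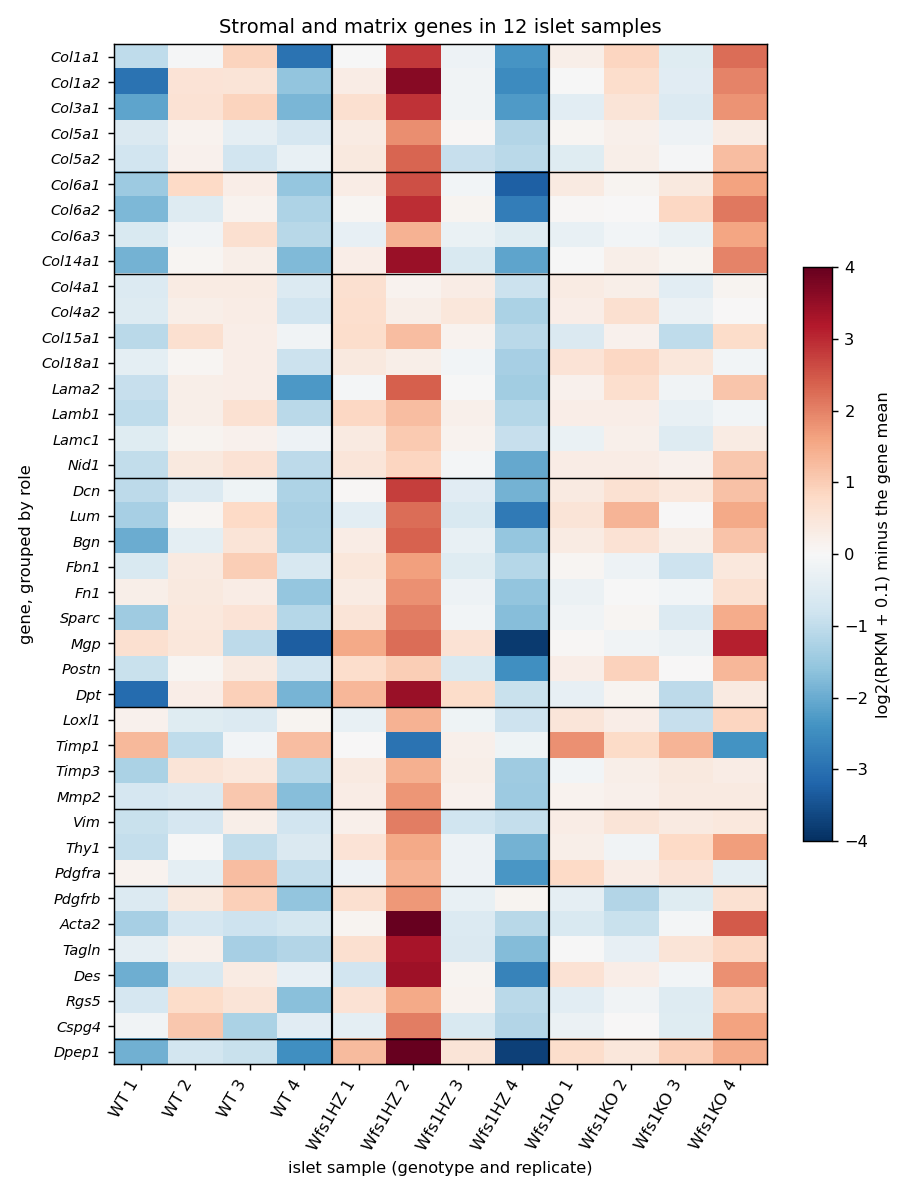
Each row is 1 of the 40 genes, grouped by role between black lines, and each column 1 islet sample. Colour gives log2(RPKM + 0.1) minus the mean of the gene, red above and blue below. Wfs1HZ replicate 2 is the column highest in 31 genes, Wfs1HZ replicate 4 the lowest in 26, and Timp1 is lowest where most of the others are highest. The scaling factors over 14753 transcripts were also highest and lowest in these libraries.

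Of the fibrillar collagens, which form the tensile fibres of interstitial tissue, Col1a2 (a chain of type I collagen) was the most abundant. It measured 0.58, 7.48, 7.34 and 1.64 RPKM in WT, 6.39, 64.69, 4.68 and 0.81 RPKM in Wfs1HZ and 5.05, 8.45, 3.69 and 20.68 RPKM in Wfs1KO. WT fell into a low pair (replicates 1 and 4) and a high pair, and the 3 groups overlapped. Over the 12 samples Col1a2 followed Col1a1, its partner chain, with Pearson r = 0.90, and Col3a1 with r = 0.98, on the log2(RPKM + 0.1) scale. The 10 pairs within this role had a median r of 0.88. Of the other interstitial collagens, Col14a1, a fibril-associated collagen, had 0.35, 1.63, 1.86 and 0.39 RPKM in WT, 1.90, 18.19, 0.99 and 0.28 RPKM in Wfs1HZ and 1.55, 1.84, 1.67 and 6.49 RPKM in Wfs1KO. It showed the same low WT pair. The partner chains of type VI collagen, Col6a1 and Col6a2, ran together with r = 0.94.

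Among the 8 basement membrane genes the highest value was from 2.87 (Col4a1) to 9.12 (Nid1) times the lowest in 7 and 35.1 times in Lama2, a laminin chain of muscle and nerve. Lamc1, the shared gamma chain of most laminins, measured 11.91, 17.73, 18.79 and 14.52 RPKM in WT, 21.29, 34.22, 18.44 and 8.73 RPKM in Wfs1HZ and 13.76, 19.28, 11.52 and 20.64 RPKM in Wfs1KO. The Wfs1KO animals all lay within the range of the other groups. Col4a1 and Col4a2, whose products assemble into a single type IV collagen molecule and whose genes lie head to head on chromosome 8, ran together with r = 0.95, and the ratio of Col4a1 to Col4a2 RPKM stayed between 0.772 and 1.39. In Wfs1HZ replicate 2 they measured 6.39 and 6.51 RPKM, within the range of the other samples, while Col1a2 was there at its highest.

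Among the proteoglycans and glycoproteins Sparc measured 21.41, 77.53, 84.32 and 25.97 RPKM in WT, 83.35, 239.28, 53.48 and 17.58 RPKM in Wfs1HZ and 52.71, 61.00, 39.94 and 162.05 RPKM in Wfs1KO. The groups overlapped, with WT replicates 2 and 3 above 3 of the 4 Wfs1KO animals. Of the remodelling genes, Timp3 had 13.89, 48.35, 45.20 and 15.23 RPKM in WT, 43.36, 90.60, 38.99 and 12.45 RPKM in Wfs1HZ and 31.04, 39.13, 44.10 and 40.98 RPKM in Wfs1KO. Its Wfs1KO animals sat between the low and the high WT pair. Timp1, a secreted inhibitor that is induced by injury, ran against the rest, at 40.36, 8.14, 15.38 and 39.05 RPKM in WT, 16.70, 2.04, 18.89 and 14.51 RPKM in Wfs1HZ and 58.31, 27.88, 42.81 and 3.06 RPKM in Wfs1KO. Its lowest values fell in Wfs1HZ replicate 2 and Wfs1KO replicate 4.

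The pericyte and smooth muscle genes were led by Rgs5, at 21.47, 57.75, 49.73 and 10.81 RPKM in WT, 51.59, 98.29, 38.14 and 16.40 RPKM in Wfs1HZ and 25.77, 31.43, 24.05 and 66.04 RPKM in Wfs1KO. Again the groups overlapped. The contractile genes were high in few samples. Acta2, smooth muscle actin, stood at 64.45 RPKM in Wfs1HZ replicate 2 and 19.71 RPKM in Wfs1KO replicate 4, and between 1.34 and 3.8 RPKM in the other 10 samples. Tagln and Des, which encode a smooth muscle actin-binding protein and the muscle filament desmin, were also highest in Wfs1HZ replicate 2, at 23.69 and 12.65 RPKM.

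To describe how the genes varied together, the mean log2(RPKM + 0.1) of the 35 members other than Dpep1 with an average of at least 1 RPKM was taken as a matrix level for each sample. It was 1.30, 2.36, 2.57 and 1.11 in WT, 2.65, 4.18, 2.19 and 0.59 in Wfs1HZ and 2.41, 2.53, 2.24 and 3.22 in Wfs1KO. The means were 1.83 ± 0.74, 2.40 ± 1.48 and 2.6 ± 0.43 (SD, n = 4), and the SD within WT and within Wfs1HZ was about as large as, or larger than, the differences between the groups. The median Pearson r over the 780 pairs of the 40 genes was 0.75, from -0.83 to 0.99, and 0.78 after the mean of each genotype was subtracted. It was 0.66 without Wfs1HZ replicate 2 and Wfs1KO replicate 4, 0.62 when samples were scaled by their median ratio and 0.54 under quantile normalization. All samples of a pair share the same libraries, so depth and composition enter each r. Each of the 40 genes other than Timp1 had a positive r with the mean of the others, from 0.61 (Loxl1) to 0.97 (Col14a1, Col6a1, Col3a1 and Sparc), and Timp1 had r = -0.67, or -0.14 without those 2 samples.

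The matrix level moved with markers of other cells. Over the 12 samples it had r = 0.87 with the mean log2 level of 11 endothelial markers, 0.78 with 9 macrophage and other immune markers, -0.70 with the acinar markers and -0.73 with the beta cell markers. Without Wfs1HZ replicate 2 and Wfs1KO replicate 4 the values were 0.92, 0.90, -0.25 and -0.48. Single transcripts with an average of at least 1 RPKM had a median r of 0.45 with the matrix level over the 12 samples. Positive values were also found with the Schwann and neural markers (r = 0.86, and 0.66 without those 2 samples), the adipocyte markers (0.76 and 0.57), the other endocrine markers (0.68 and 0.59) and the mesothelial markers (0.65 and 0.36). Of the 4 adipocyte and the 4 mesothelial markers, 3 each were at 0 in at least 1 sample, as was Sox10 of the Schwann and neural list. The means of these lists rest in part on the pseudocount of 0.1. With the ductal markers r was 0.07, and 0.53 without those 2 samples. With log2 depth it had r = -0.56, and -0.05 without those 2 samples. Endothelial markers were present in all samples, with none at 0, and their sum ranged from 35.9 to 104 RPKM in WT, 35.8 to 173 RPKM in Wfs1HZ and 92.9 to 114 RPKM in Wfs1KO. Acinar markers, none at 0 either, summed to 53900 to 121000 RPKM in WT, 9100 to 308000 RPKM in Wfs1HZ and 8560 to 279000 RPKM in Wfs1KO. The immune markers summed to 64.3 to 233 RPKM in WT, 62.0 to 116 RPKM in Wfs1HZ and 31.0 to 178 RPKM in Wfs1KO. Unlike their mean log2 level, this sum was lowest in Wfs1KO replicate 4 and Wfs1HZ replicate 2, the samples with the highest matrix levels. It was highest in WT replicate 4, where the matrix level was 1.11. The part of these cells in the results was not tested.

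**Figure D2:**
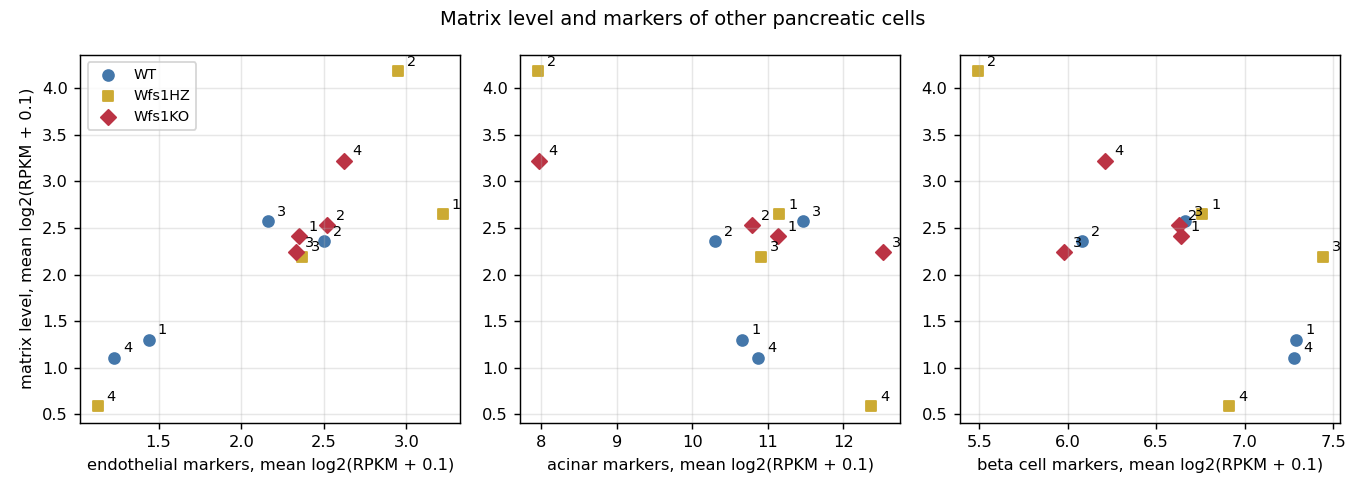
Each point is 1 islet sample, numbered by replicate and coloured by genotype, with the matrix level on the vertical axis and the mean log2(RPKM + 0.1) of endothelial, acinar or beta cell markers on the horizontal axes. The matrix level rises with the endothelial markers (r = 0.87), and the 2 samples at the far left of the acinar panel, Wfs1HZ replicate 2 and Wfs1KO replicate 4, have the highest matrix levels.

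The comparison of Wfs1KO with WT asked whether loss of Wfs1 went with a different connective tissue component. Matrix genes were mostly higher in Wfs1KO but none passed the test. A higher mean was found for 37 of 40, and for 12553 of all 21701 transcripts tested. The median log2 fold change was 0.71 against 0.07 for all transcripts tested. By limma with Benjamini-Hochberg adjustment 0 of 40 had an adjusted p under 0.05 or under 0.2, the lowest being 0.435, against 0.0138% and 0.0461% of all transcripts. At an unadjusted p under 0.05, 7 genes were higher and 0 lower, where 3.91% of all transcripts were higher and 1.74% lower. All 4 Wfs1KO animals lay above all 4 WT animals for 3 genes and below for 0, where 1.75% of all transcripts did so upwards and 0.991% downwards.

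The 3 genes without overlap were Dcn, Dpep1 and Vim. Dcn (chr10:97479609-97518143, plus strand) measured 15.78, 22.14, 28.82 and 13.95 RPKM in WT, 33.77, 223.73, 23.69 and 8.65 RPKM in Wfs1HZ and 41.96, 49.75, 43.88 and 73.07 RPKM in Wfs1KO. The lowest Wfs1KO value was above the highest WT value, whereas Wfs1HZ spanned both groups. The log2 fold change of Wfs1KO against WT was 1.39 ± 0.27 (SE; limma adjusted p = 0.435). Vim (chr2:13573927-13582826, plus strand), the intermediate filament of mesenchymal cells, measured 13.06, 15.35, 28.86 and 14.34 RPKM in WT, 27.95, 100.12, 14.02 and 12.65 RPKM in Wfs1HZ and 30.11, 34.86, 30.97 and 32.31 RPKM in Wfs1KO. Its 4 Wfs1KO values lay close together and WT replicate 3 came near them, and under median-of-ratios scaling or quantile normalization the groups overlapped. The log2 fold change was 0.91 ± 0.25 (limma adjusted p = 0.835).

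The other 4 genes with an unadjusted p under 0.05 overlapped between the groups. Thy1, a fibroblast surface protein, measured 3.59, 6.97, 3.53 and 4.74 RPKM in WT and 8.41, 6.33, 12.35 and 22.94 RPKM in Wfs1KO, with a log2 fold change of 1.27 ± 0.40. Bgn had 10.29, 31.71, 59.80 and 17.30 RPKM in WT and 52.01, 61.89, 48.41 and 91.86 RPKM in Wfs1KO, for which the log2 fold change was 1.35 ± 0.49. WT replicate 3 reached the Wfs1KO range for Bgn, and WT replicate 2 did so for Thy1. Col6a2 and lumican (Lum), a proteoglycan related to decorin, had log2 fold changes of 1.60 ± 0.60 and 1.29 ± 0.54. For all 4 the limma adjusted p was between 0.835 and 0.876.

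By role, the median log2 fold change of Wfs1KO against WT was 1.26 for the 4 other interstitial collagens, 0.96 for the 5 fibrillar collagens and 0.93 for the 9 proteoglycans and glycoproteins. It was 0.91 for the 3 fibroblast genes, 0.66 for the 6 pericyte and smooth muscle genes, 0.46 for the 4 remodelling genes and 0.36 for the 8 basement membrane genes. The 3 genes with lower means were Pdgfrb, the growth factor receptor of pericytes, at -0.17 ± 0.63, the microfibril gene Fbn1 at -0.15 ± 0.47 and the basement membrane collagen Col15a1 at -0.09 ± 0.50. Of these 3 genes and the 5 fibrillar collagens, whose standard errors reached 0.85, 0 had an unadjusted p under 0.05.

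The count rested on the low WT pair in part. Without WT replicate 1 or without WT replicate 4, 4 genes (Dcn, Dpep1, Vim and Thy1) had an unadjusted p under 0.05, and the median fell to 0.51 or 0.46. Of all transcripts 3.69% or 2.8% were then higher at that p. Without WT replicate 3 the number was 14, of which 7 did not overlap, with a median of 0.97, where 3.81% of all transcripts were higher at that p and 3.58% were higher without overlap. Without Wfs1KO replicate 4 it was 5, with a median of 0.53, and 4 genes (Dcn, Dpep1, Vim and Col18a1) did not overlap. Of all transcripts 4.82% were then higher at that p and 4.11% higher without overlap. In the same comparison all 11 endothelial markers had higher means, with a median log2 fold change of 0.56. Cdh5, which encodes the endothelial cadherin, measured 7.61, 17.91, 14.11 and 7.95 RPKM in WT and 28.98, 25.65, 28.32 and 31.19 RPKM in Wfs1KO, without overlap (log2 fold change 1.35 ± 0.28, limma adjusted p = 0.5). The acinar markers had a median of -0.23 and the beta cell markers of -0.66, and the part of these shifts in the matrix values was not tested.

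**Figure D3:**
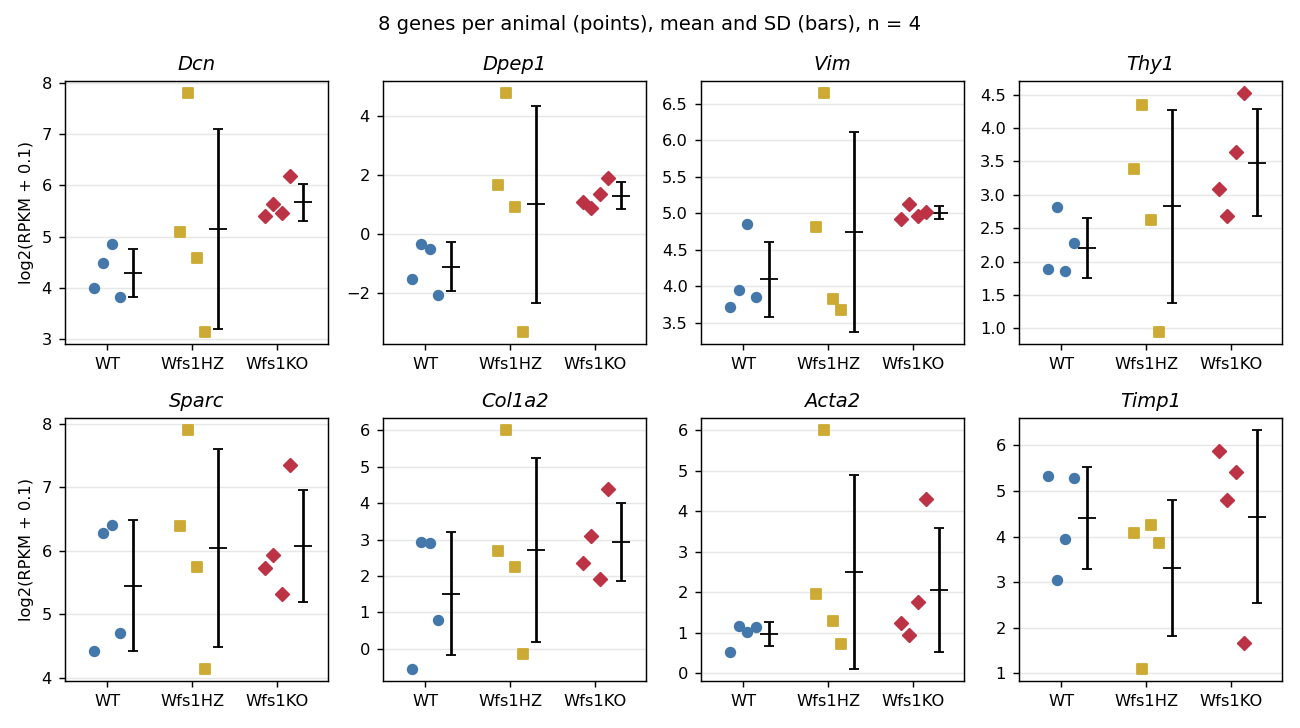
Each point is 1 animal, on the log2(RPKM + 0.1) scale, for 8 of the 40 genes, with the mean and SD of the 4 animals of a genotype as a bar. The Wfs1KO points of Dcn, Dpep1 and Vim all lie above the WT points, the Wfs1HZ points span both groups, and Timp1 is low in Wfs1HZ replicate 2 and Wfs1KO replicate 4.

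The comparison of Wfs1HZ with WT asked the same of animals with 1 intact copy. Here too 37 of 40 genes had a higher mean, as did 11609 of all 21701 transcripts tested. The median log2 fold change was 0.60 against 0.04 for all transcripts, but the sizes depended on single libraries. Without Wfs1HZ replicate 2 the median was 0.00 against -0.19 for all transcripts, with 20 of 40 genes higher and 29 above the median of all transcripts. Without Wfs1HZ replicate 4 it was 1.05 against 0.25. By limma 0 of 40 genes had an adjusted p under 0.05 or 0.2, as did 0% of all transcripts. At an unadjusted p under 0.05, 0 genes were higher and 0 lower, against 1.09% and 1.27% of all transcripts, and 0 were without overlap in either direction, against 0.576% and 1.08%. The lowest p belonged to Dpt, a matrix protein that promotes fibril assembly, with a log2 fold change of 2.08 ± 1.04. It measured 0.48, 5.70, 9.37 and 1.23 RPKM in WT and 12.02, 52.52, 8.0 and 2.54 RPKM in Wfs1HZ, with 2 Wfs1HZ animals above all WT. Without Wfs1HZ replicate 4, 5 genes (Lamc1, Dpt, Mgp, Dpep1 and Thy1) had an unadjusted p under 0.05, and Dpep1 and Acta2 did not overlap, where 4.06% of all transcripts were higher at that p and 3.98% were higher without overlap. Timp1 had the largest decrease of mean, -1.09 ± 0.75 (limma adjusted p = 1).

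Between Wfs1KO and Wfs1HZ, 29 of 40 genes had a higher mean in Wfs1KO, as did 11600 of all 21701 transcripts tested. The median log2 fold change was 0.18 against 0.04 for all transcripts. Again 0 of 40 had an adjusted p under 0.05 or 0.2 (0% of all transcripts), 0 had an unadjusted p under 0.05 in either direction (1.7% higher and 0.756% lower over all transcripts), and 0 were without overlap (0.926% and 0.502%). The direction depended on single libraries: the median was 0.79 without Wfs1HZ replicate 2, -0.35 without Wfs1HZ replicate 4 and -0.05 without Wfs1KO replicate 4. The medians of all transcripts were then 0.28, -0.20 and -0.04. Dpt was lower in mean in Wfs1KO by -1.38 ± 0.76, at 3.8, 5.13, 2.26 and 6.08 RPKM, and overlapped Wfs1HZ. The 2 comparisons with WT share the WT animals, so their values are not independent.

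**Figure D4:**
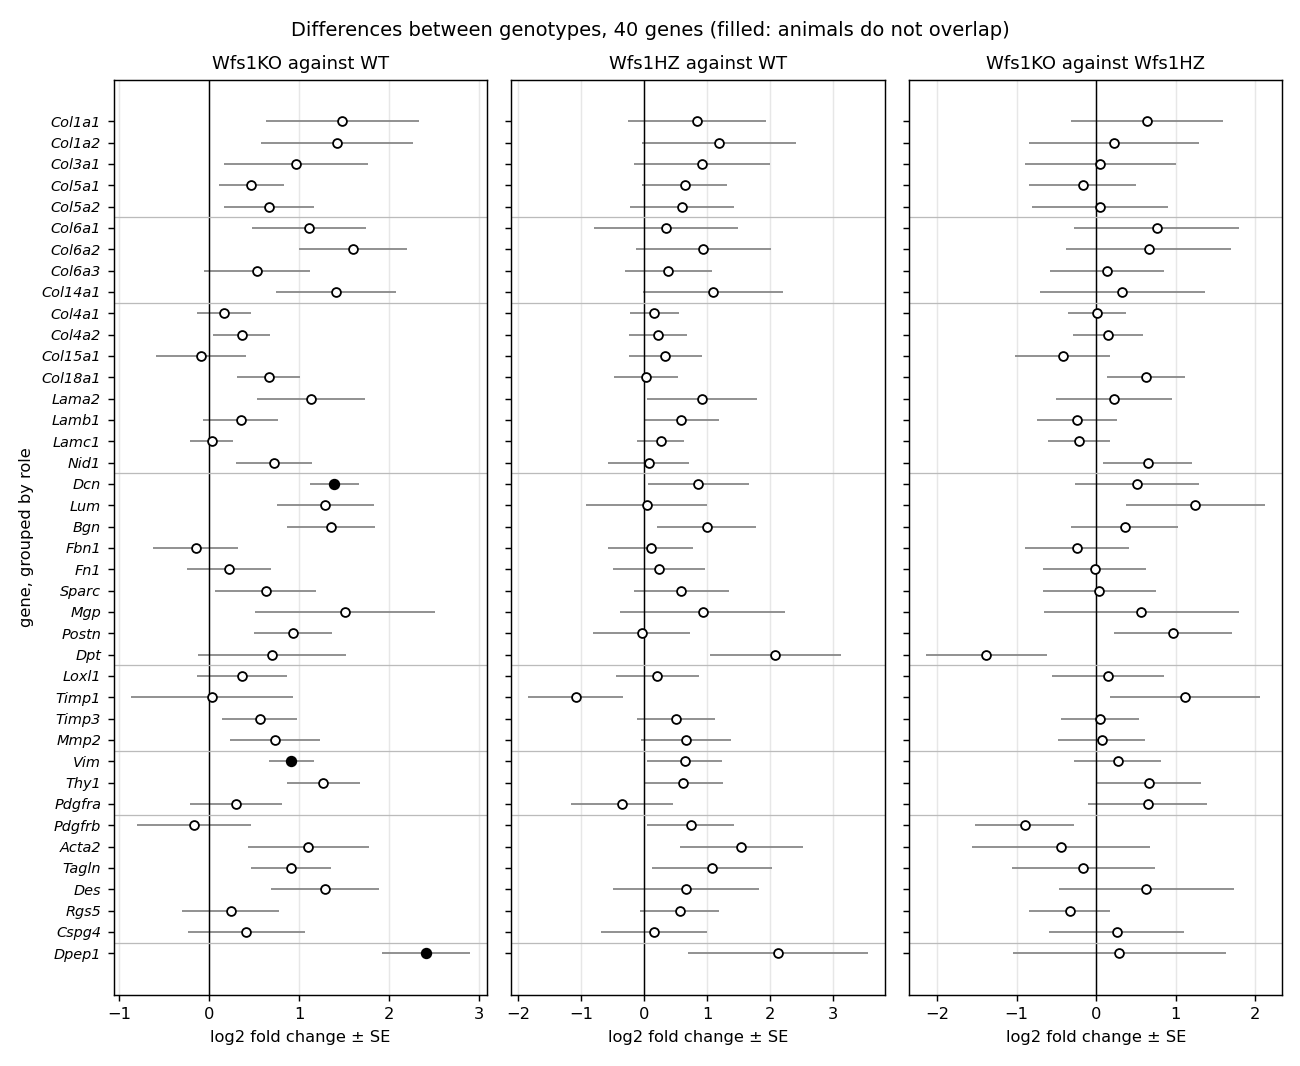
The 40 genes are listed by role, and each point is the log2 fold change between 2 genotypes with its standard error as a line; filled points are genes whose animals do not overlap. The 3 filled points are Dcn, Vim and Dpep1 in Wfs1KO against WT, and in the other comparisons most lines cross 0.

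Dpep1 (chr8:123186242-123201812, plus strand) encodes a dipeptidase of the cell surface that cleaves peptides formed in glutathione and leukotriene breakdown and is best known from the kidney brush border. It measured 0.25, 0.69, 0.61 and 0.14 RPKM in WT, 3.10, 27.48, 1.81 and 0.00 RPKM in Wfs1HZ and 2.04, 1.73, 2.48 and 3.64 RPKM in Wfs1KO. The Wfs1KO animals lay above all WT animals, and 3 of the 4 Wfs1HZ animals did so as well. The paper singled out Dpep1 in these same samples, as the only gene it names between Wfs1HZ and WT at an FDR under 0.2. Its differences from WT here are therefore no independent result. The counts behind these values were small. They came to about 4.8, 13.5, 3.8 and 2.0 reads in WT and 23.2 to 43.0 reads in Wfs1KO, estimated from depth and transcript length, and the 0 in Wfs1HZ replicate 4 allows up to 0.277 RPKM (3 reads). The log2 fold change of Wfs1KO against WT was 2.41 ± 0.49 (limma adjusted p = 0.483), the highest of the 40 genes. It depended on the pseudocount, from 1.28 with a pseudocount of 1 to 2.73 with 0.01. Wfs1HZ against WT gave 2.12 ± 1.43, 0.87 without Wfs1HZ replicate 2 and 3.57 without Wfs1HZ replicate 4.

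Dpep1 followed the matrix genes over the 12 samples. Its log2(RPKM + 0.1) had a Pearson r of 0.94 and a Spearman rho of 0.80 with the matrix level (n = 12), and r = 0.95 after the genotype means were subtracted. Without the 2 samples farthest from the median matrix level, Wfs1HZ replicates 2 and 4, r was 0.83 and rho 0.66 (n = 10). Without Wfs1HZ replicate 2 and Wfs1KO replicate 4, the samples lowest in acinar RNA, r was 0.89. In Wfs1HZ the 4 animals stood in the same order by Dpep1 and by matrix level. In WT the pair with the low matrix level was also the pair with low Dpep1, whereas in Wfs1KO the 3 animals with matrix levels from 2.24 to 2.53 stood in the reverse order.

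At matrix levels near those of WT replicates 2 and 3, Dpep1 was lower in WT than in the other groups. WT replicates 2 and 3, Wfs1HZ replicates 1 and 3 and Wfs1KO replicates 1 to 3 all had matrix levels between 2.19 and 2.65, yet Dpep1 was 0.69 and 0.61 RPKM in the WT animals and 1.73 to 3.10 RPKM in the others. The log2 level of Dpep1 minus the matrix level was -2.81, -2.70, -3.06 and -3.17 in WT, -0.97, 0.61, -1.26 and -3.91 in Wfs1HZ and -1.31, -1.66, -0.87 and -1.32 in Wfs1KO. Relative to Dcn, Dpep1 RPKM was 1.00% to 3.12% in WT and 3.48% to 5.65% in Wfs1KO, and in Wfs1HZ 9.18%, 12.3%, 7.64% and 0%. In Wfs1HZ replicate 4 the -3.91 is set by the pseudocount, and the 0 allows up to 3.2% of Dcn and a difference of up to -2.0 (3 reads). Both ratios were chosen after the values were seen, and no test is given for them.

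**Figure D5:**
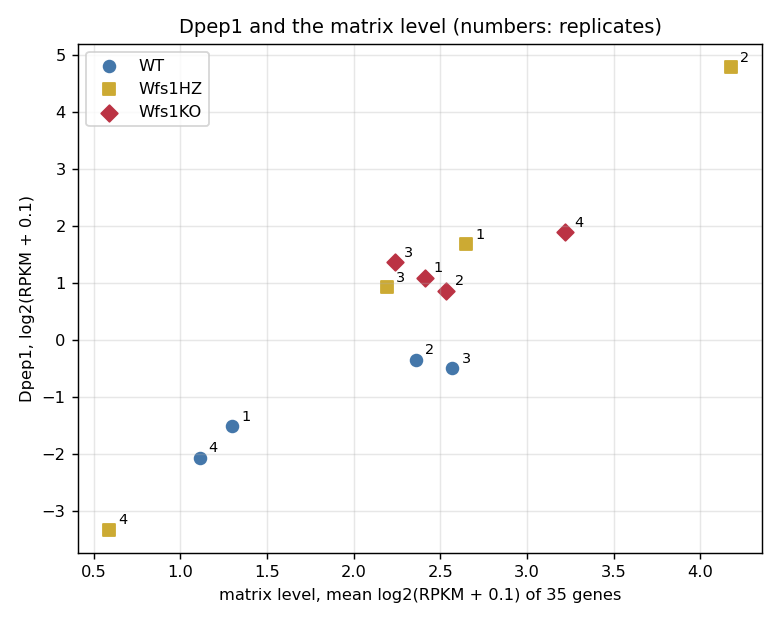
Each point is 1 islet sample, numbered by replicate, with the matrix level (mean log2(RPKM + 0.1) of 35 genes) on the horizontal axis and Dpep1 on the same log2 scale on the vertical axis. Dpep1 rises with the matrix level (r = 0.94, n = 12), and near a matrix level of 2.5 the WT points lie below those of the other genotypes.

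The 35 matrix genes had a median r with Dpep1 of 0.84, against 0.40 for 13355 transcripts with an average of at least 1 RPKM, and 27 of the 35 (77.1%) were in the top 10% of these transcripts. Dcn (r = 0.95), Col5a1 and Col6a2 (both 0.94) stood closest, and Pdgfrb (0.52) and Timp1 (-0.50) farthest. The medians were 0.86 and 0.54 after the genotype means were subtracted, and 0.75 and 0.32 without Wfs1HZ replicate 2 and Wfs1KO replicate 4. The 10 transcripts most like Dpep1, by Pearson r of log2(RPKM + 0.1) over the 12 samples, were Crim1, Fos, Myl9 and Sox9 (0.97), then Dcn, Ltbp4, Ube2g2, Tpd52l2 and Plod2 (0.95) and She (0.94). Myl9, a smooth muscle myosin light chain, measured 0.73, 3.49, 2.20 and 0.86 RPKM in WT, 6.75, 72.75, 3.74 and 0.00 RPKM in Wfs1HZ and 3.92, 3.43, 9.57 and 11.99 RPKM in Wfs1KO. Its high and low samples in Wfs1HZ were those of Dpep1. Sox9, a transcription factor of duct cells, measured 4.28, 4.20, 5.41 and 3.06 RPKM in WT, 6.45, 14.16, 5.69 and 3.10 RPKM in Wfs1HZ and 6.66, 6.96, 7.15 and 6.97 RPKM in Wfs1KO. Its Wfs1KO values were close together and above all of WT. Of the 9 ductal markers, Sox9 among them, 4 had a higher mean in Wfs1KO than in WT, with a median log2 fold change of -0.01.

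Enzymes that fold and crosslink collagen formed a further list, with 19 genes tested. In Wfs1KO against WT 15 of 19 had a higher mean (median log2 fold change 0.34), 3 had an unadjusted p under 0.05 (Serpinh1, Crtap and Plod2), all higher, where 3.91% of all transcripts were higher at that p, and 0 had an adjusted p under 0.05. Serpinh1, the collagen chaperone Hsp47, measured 6.62, 8.67, 8.50 and 4.70 RPKM in WT and 17.79, 11.76, 9.68 and 8.76 RPKM in Wfs1KO, and its log2 fold change was 0.73 ± 0.28 without overlap. Crtap, a part of the complex that hydroxylates collagen prolines, measured 3.70, 6.23, 4.18 and 2.18 RPKM in WT and 7.02, 6.42, 6.91 and 6.52 RPKM in Wfs1KO, and its log2 fold change was 0.80 ± 0.30, also without overlap, as 1.75% of all transcripts were in that direction. In Wfs1HZ against WT 9 of 19 were higher and 0 had an unadjusted p under 0.05. In Wfs1KO against Wfs1HZ 17 of 19 were higher and 0 had such a p, and the lysyl oxidase gene Loxl3 was higher without overlap, as were 0.926% of all transcripts.

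Of 33 further matrix genes, 29 had a higher mean in Wfs1KO than in WT (median 0.59), 2 of them with an unadjusted p under 0.05, the elastic fibre genes Mfap4 (1.99 ± 0.79) and Fbln2 (0.91 ± 0.31), and 0 were without overlap, where 3.91% of all transcripts were higher at that p and 1.75% higher without overlap. Mfap4 stood at 1.65, 8.52, 16.01 and 1.03 RPKM in WT and 11.72, 20.31, 11.58 and 24.16 RPKM in Wfs1KO, so the low WT pair was again replicates 1 and 4. In Wfs1HZ against WT 28 were higher and 0 had an unadjusted p under 0.05. Between Wfs1KO and Wfs1HZ 16 were higher, and Emilin1, an elastic fibre glycoprotein, was without overlap at 0.70, 0.13, 0.43 and 0.46 RPKM in Wfs1HZ and 2.42, 2.38, 1.56 and 0.78 RPKM in Wfs1KO (log2 fold change 1.85 ± 0.64, limma adjusted p = 1), as were 0.926% of all transcripts upwards.

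Growth factors that drive fibroblasts and pericytes formed a list of 18 tested genes, of which 13 had a higher mean in Wfs1KO than in WT (median 0.34) and 3 an unadjusted p under 0.05, Pdgfa, Tgfbr3 and Cyr61, all higher, where 3.91% of all transcripts were. Pdgfa, the ligand of Pdgfra, measured 13.84, 25.38, 31.90 and 30.14 RPKM in WT, 44.50, 34.77, 35.53 and 31.00 RPKM in Wfs1HZ and 42.46, 39.15, 41.04 and 41.62 RPKM in Wfs1KO. Its Wfs1KO values lay together above WT, as did those of 1.75% of all transcripts (log2 fold change 0.77 ± 0.25, limma adjusted p = 0.835), and Wfs1HZ overlapped WT through replicate 4. Its receptor Pdgfra had a log2 fold change of 0.30 ± 0.51. The coreceptor Tgfbr3 and the matricellular Cyr61 had log2 fold changes of 0.82 ± 0.31 and 0.68 ± 0.29, both with overlap. In Wfs1HZ against WT 13 of 18 were higher, in Wfs1KO against Wfs1HZ 11 of 18, and 0 had an unadjusted p under 0.05 in either comparison. The higher means in these further lists stand beside those of all 21701 transcripts. Of these, 12553 were higher in Wfs1KO than in WT, 11609 in Wfs1HZ than in WT and 11600 in Wfs1KO than in Wfs1HZ.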

How the data were processed

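Islet RNA of 12 mice was sequenced, 1 library per animal, and genotype and replicate number were read from the sample titles. The authors amplified 10 ng of total RNA (Ovation RNA-Seq System V2), sequenced paired reads of 75 and 35 bp on a SOLiD 5500xl, mapped them to mm10 and deposited RPKM values per transcript; the tool and annotation behind the RPKM are not given in the sources used here. The authors' own test on counts was not repeated, since RPKM are not counts. Values were used as log2(RPKM + 0.1), and fold changes are on that scale, which understates the change of low genes. Each pair of genotypes was fitted alone with limma 3.58.1 (R 4.3.3, trend in the variance) over the 21701 transcripts that averaged 0.1 RPKM or more, with Benjamini-Hochberg adjustment. For genes whose 4 animals a genotype do not overlap, the exact permutation p is 0.0286 by construction, the lowest it can be, and is not given beside them.

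Depth was estimated from RNA genes under 200 nt, where 95.6% to 100% of values were whole reads within 0.1 read; read numbers are estimates and cover counting error only. Positions are from GENCODE M21 (GRCm38, the build mm10 names), and start regions from RefSeq. The genes and lists were chosen with earlier results of these data known. Animal values are given for Dpep1, the most abundant gene of each role and genes without overlap between genotypes. The text also gives values for other genes with an unadjusted p under 0.05, for Dpt, Acta2 and Timp1 and for some genes of the further lists, chosen after their values were seen. Alternatives changed the pseudocount, filter, scaling, fit, weights, replicate block and each animal.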

Additional observations from a re-analysis of the deposited data

Results flagged for a closer look

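In each genotype of 4 animals, the 40 genes were examined for an animal that stands apart from the other 3, by Dixon's criterion on RPKM. The criterion flags about 1 in 20 groups of normally distributed values. RPKM were examined without the log2 scale, on which high values stand apart less, so that rate does not measure chance here. Of 120 combinations 23 (19.2%) were flagged. These genes vary together, so the 23 are not independent.

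In 14 of them the animal was Wfs1HZ replicate 2, always as the highest. There Col1a1 stood at 21.84 RPKM, Col1a2 at 64.69, Col6a2 at 10.85, Col6a3 at 1.55, Col14a1 at 18.19 and the laminin chain Lama2 at 9.49 RPKM. Dcn stood at 223.73 RPKM, Lum at 19.38, Loxl1 at 1.49, Acta2 at 64.45, Tagln at 23.69, Des at 12.65, Cspg4 at 1.29 and Dpep1 at 27.48 RPKM. For Acta2 the other Wfs1HZ animals had 1.56 to 3.8 RPKM. In 7 it was Wfs1KO replicate 4, again the highest, with Col6a1 at 4.35 RPKM, Col6a3 at 1.76, Col14a1 at 6.49, Nid1 at 18.52, Mgp at 52.58, Acta2 at 19.71 and Cspg4 at 0.94 RPKM. For Mgp the other Wfs1KO animals had 5.16 to 6.25 RPKM. These 2 libraries also had the lowest summed acinar markers, 9100 and 8560 RPKM, and depths of 2109000 and 3162000 reads, and the part of either in the values was not tested.

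The remaining flags were in WT. Fibronectin (Fn1) was low in replicate 4, at 0.81 RPKM against 3.03 to 3.42, and Vim was high in replicate 3, at 28.86 RPKM against 13.06 to 15.35.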

How the results depend on the processing

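Under every alternative run, 0 of the 40 genes had a limma adjusted p under 0.05 in any pair. The median log2 fold change without 1 animal ranged from 0.46 to 0.97 in Wfs1KO against WT, from 0.00 to 1.05 in Wfs1HZ against WT and from -0.35 to 0.79 in Wfs1KO against Wfs1HZ, where its sign changed. Other values moved as follows, and the cause was not tested. In Wfs1KO against WT, genes higher at an unadjusted p under 0.05 numbered 4 when all 12 samples shared 1 fit and 4 to 14 when 1 animal was left out, against 7, and genes higher without overlap numbered 3 to 7, against 3. Of all transcripts 1.99% were higher at that p in the 1 fit. Without 1 animal 2.67% to 5.24% of them were higher at that p and 2.37% to 5.11% higher without overlap. In Wfs1HZ against WT the number higher at that p, 0, became 1 with a minimum mean of 1 RPKM, where 0.741% of all transcripts were higher. It was also 1 with median-of-ratios scaling (2.25% of all transcripts), with all samples in 1 fit (1.49%) and with the replicate block (1.79%). With sample weights it was 2 (3.23%), and without 1 animal it ranged from 0 to 5. Higher without overlap were 1 with median-of-ratios scaling, against 1.28% of all transcripts, and 0 to 2 without 1 animal. In Wfs1KO against Wfs1HZ the number higher, 0, became 2 with sample weights and 0 to 4 without 1 animal, and the number lower 1 with either scaling, 1 with sample weights and 0 to 1 without 1 animal. There, higher without overlap were 0 to 3 and lower 0 to 1 without 1 animal. A count in this paragraph with no share of all transcripts beside it cannot be read as a result about these genes. Leaving out Wfs1HZ replicate 2 and Wfs1KO replicate 4 together, chosen after seeing the data, gave 4 higher at that p, 6 higher and 1 lower without overlap in that pair, where 7.86% and 2.03% of all transcripts did not overlap.

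Mean differences near 0 changed sign. In Wfs1KO against WT, Lamc1 (0.03) ranged from -0.09 to 0.18, Rgs5 (0.24) from -0.23 to 0.57 and Timp1 (0.03) from -0.44 to 0.96 without 1 animal; Lamc1 and Rgs5 were both -0.09 without those 2 libraries, and Timp1 was -0.06 after quantile normalization. Dpep1 in Wfs1KO against Wfs1HZ (0.29) was -0.32 with a pseudocount of 1 and -1.16 to 1.55 without 1 animal. The r of Dpep1 with the matrix level was 0.90 to 0.97 without 1 animal and 0.83 without the 2 farthest samples, also chosen after seeing the data, and the median r among pairs was 0.54 after quantile normalization. Without WT replicate 3, Vim in Wfs1KO against WT had a limma adjusted p of 0.187.

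The replicate numbers did not pair the animals: same-numbered deviations correlated from -0.17 to 0.23. With the replicate block 6 genes were higher at an unadjusted p under 0.05 in Wfs1KO against WT, as were 3.64% of all transcripts. In Wfs1HZ against WT 1 was higher (Dpt) and 1 lower (Timp1) at that p, where 1.79% of all transcripts were higher. Depth limits the low genes most, at 2109000 estimated reads in the shallowest library.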
